A study of Homo sapiens with 4 samples.

Results

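The genes described here encode the enzymes that make nucleotides and the folate-bound one-carbon units used in making them. They were chosen by name, as a list of 34 gene symbols, with earlier results of these data known. All 34 were found among the 22439 genes that could be matched to a probe of the array through a RefSeq accession. By role, 9 of them serve ribonucleotide reduction and deoxynucleotide metabolism, 5 the de novo pyrimidine pathway, 8 the supply of PRPP (phosphoribosyl pyrophosphate) and de novo purine synthesis, 3 the guanine nucleotide branch and 5 folate one-carbon metabolism. A pair of diphosphate kinases (2 genes) and a pair of purine base salvage enzymes (2 genes) complete the list. The 34 genes were read by 44 probes, all 44 of them well above background on every array.

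Gene expression was measured in cells labelled as A549, a human lung adenocarcinoma line, grown in RPMI 1640 medium. Cells were transfected with *miR-486-5p* (1 array) or with *miR-486-3p* (1 array), the microRNAs made from either arm of the *miR-486* precursor, by means of Lipofectamine RNAiMAX. The mock group (2 arrays) received the transfection reagent alone. All 4 samples were total RNA, labelled with Cy3 and read on one-color Agilent arrays. Since the mock cells received no small RNA, an effect of a given strand and an effect of any transfected small RNA cannot be told apart in a comparison with mock.

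The signals are on a log2 scale relative to the 75th percentile of the same array, so that a level of 1 is a signal 2 times that percentile. A log2 difference is the level on a transfected array minus the mean level of the mock arrays, averaged over the probes of a gene. Levels of different probes were not set against each other. Each strand has 1 array, and the labels do not say whether the mock arrays came from separate cultures, so every p-value measures only the spread between the mock arrays and assumes that a transfected array varies by as much. In whole-culture RNA, fewer cells that make a transcript and less transcript per cell cannot be told apart.

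The mock arrays were close to each other over these genes. Mock 1 minus mock 2 lay between −0.15 and 0.16 on the log2 scale for the 34 genes, and none of them (0) differed by more than 0.5, against 5.08% of all 16662 genes tested. Between 30690 and 31516 of 58201 probes were well above background on an array, and no spot was saturated.

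Markers of the cells did not all match the A549 label. *CDKN2A*, which encodes p16 and is known to be lost from both chromosomes in A549, was well above background on all arrays, with its brighter probe at 6.03 and 5.98 on the mock arrays and 3.89 after *miR-486-3p*. The 3 probes of its neighbor *MTAP*, a purine salvage gene lost together with it in A549, were also well above background on all 4 arrays, at levels of 0.36 to 2.91 on mock 1. *MTAP* was looked up after the values of *CDKN2A* had been seen. *AKR1B10*, a reductase known for high expression in A549, was not well above background on either mock array. The keratins *KRT8*, *KRT18* and *KRT19* were well above background on all 4 arrays, *EPCAM* on 2 arrays and *CDH1* on none. Of 7 markers of leukocytes, fibroblasts and endothelium, *PECAM1* and *COL3A1* were above background on no array, and the summed signal of the markers was between 1.28 and 1.37 times the 75th percentile on the 4 arrays. The cells are therefore called by their label only, and the part of their identity in the results was not tested.

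Cells make nucleotides de novo from amino acids, bicarbonate, PRPP and one-carbon units carried by tetrahydrofolate, or recover them from free bases and nucleosides by salvage. Ribonucleotide reductase then converts ribonucleotides to the deoxynucleotides from which DNA is built, and thymidylate synthase adds the methyl group that makes dTMP out of dUMP. Many of these genes are known for higher expression in dividing cells, and enzymes of these pathways are the targets of 5-fluorouracil, hydroxyurea, gemcitabine and mycophenolic acid.

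Promoter sequence is shown because members moved together and because promoters of genes used in DNA synthesis are known for binding sites of E2F, NF-Y (which binds CCAAT) and, at the E-box, MYC and USF proteins. RefSeq start sites on GRCh38.p14 were found for 31 of the 34 genes; *ADSL*, *IMPDH2* and *SHMT2* had no entry. The 250 bases before each start site were searched on both strands for the E2F spellings TTTCGCGC, TTTGGCGC, TTTCCCGC and TTTGCCGC, for CCAAT, and for the E-box CACGTG, which reads the same on both strands. The spellings do not contain one another. These letters were chosen after the values of the genes had been seen. The pair printed in full belongs to *TYMS* and *RRM1*, with found letters in capitals. For *TYMS* the window is chr18:657403-657652, plus strand, and for *RRM1* it is chr11:4094435-4094684, plus strand.
TYMS: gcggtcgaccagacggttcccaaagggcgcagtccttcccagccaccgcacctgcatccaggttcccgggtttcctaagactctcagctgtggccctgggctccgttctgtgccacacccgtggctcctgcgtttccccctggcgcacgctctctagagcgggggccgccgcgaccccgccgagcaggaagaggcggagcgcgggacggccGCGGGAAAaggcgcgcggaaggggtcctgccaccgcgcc
RRM1: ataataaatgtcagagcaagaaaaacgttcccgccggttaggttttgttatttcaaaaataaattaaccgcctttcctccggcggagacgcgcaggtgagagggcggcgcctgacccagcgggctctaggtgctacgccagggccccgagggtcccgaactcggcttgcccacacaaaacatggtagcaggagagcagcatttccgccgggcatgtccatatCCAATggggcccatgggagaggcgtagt

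An E2F spelling was found before 4 of the 31 genes, *TYMS*, *DUT*, *GART* and *PRPS2* (12.9%), against 3.40% of 27305 genes with a promoter in the same table. It began 39 bases before the start site of *TYMS*, 27 before *DUT*, 12 before *PRPS2* and 245 before *GART*. The windows of 30 bases around it follow, with the E2F letters in capitals, at chr15:48332159-48332188 (plus strand) for *DUT*, chrX:12791382-12791411 (plus strand) for *PRPS2* and chr21:33542338-33542367 (minus strand) for *GART*.
DUT: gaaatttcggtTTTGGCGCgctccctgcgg
PRPS2: tacatctagccgccgcgcTTTCCCGCtccc
GART: agcatTTTGGCGCtcccccccggcgctcct

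CCAAT was found before 14 of the 31 genes (45.2%), against 37.0% of all genes. The 14 were *CAD*, *DHODH*, *DTYMK*, *GART*, *MTHFD1*, *MTHFD1L*, *MTHFD2*, *NME1*, *PRPS1*, *RRM1*, *RRM2*, *SAMHD1*, *SHMT1* and *TK1*. The E-box was found before 7 of 31 (22.6%), against 7.73% of all genes. The 7 were *ATIC*, *DCK*, *DCTPP1*, *DHODH*, *MTHFD1*, *MTHFD1L* and *PPAT*. For the genes with the lowest log2 differences after *miR-486-3p*, *RRM2* (chr2:10122661-10122690, plus strand) and *TK1* (chr17:78187081-78187110, minus strand), the windows with the CCAAT letters in capitals are printed, ATTGG being CCAAT on the other strand. The E-box windows of *MTHFD1* (chr14:64388323-64388352, plus strand) and *DCTPP1* (chr16:30429801-30429830, minus strand) are printed because the E-box began 15 and 9 bases before their start sites, the nearest of the 7.
RRM2: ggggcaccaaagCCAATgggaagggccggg
TK1: ggccggctcgtgATTGGccagcacgccgtg
MTHFD1: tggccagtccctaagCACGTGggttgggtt
DCTPP1: gcgttttggggagggttcctcCACGTGgtc
A match describes the letters of a window only, and no binding was measured in these cells.

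After *miR-486-3p*, 29 of the 34 genes fell and none (0) rose, by limma with Benjamini-Hochberg adjustment over all 33498 probes tested. Among all genes tested, 25.7% fell and 25.6% rose by the same rule, which asks that every tested probe of a gene has an adjusted p under 0.05. The signal of 33 of the 34 genes was below both mock arrays, *SHMT2* being the exception. The median log2 difference of the 34 genes was −1.36, with a range of −3.84 to 0.33, beside a median of 0.06 over all genes. Genes with a log2 difference below −0.5 numbered 29, against 27.2% of all genes, and none (0) was above 0.5, against 30.4%.

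After *miR-486-5p*, the differences were smaller and only 6 genes passed the test, all of them lower. *TYMS*, *DUT*, *RRM2*, *TK1*, *PRPS1* and *IMPDH2* fell, and none (0) rose, while 4.83% of all genes fell and 2.25% rose. The median log2 difference was −0.40, with a range of −1.60 to 0.26, beside 0.03 over all genes. The signal was below both mock arrays for 29 of the 34 genes and above both for 3. A log2 difference below −0.5 was found for 16 genes, against 15.9% of all genes, and one above 0.5 for none (0), against 13.8%. The 6 adjusted p-values were 0.0475 to 0.0492, just under the threshold. Of the 28 genes not called, 11 had an adjusted p under 0.1 on every probe, whatever the direction. Among the 11 was *GART*, whose probes had opposite signs. The share of all genes under 0.1 was not worked out. At an unadjusted limma p under 0.05, 17 genes were lower and none (0) higher, against 19.5% and 17.1% of all genes. With the deposited log2 values in place of the scanner signals, or without the filter on dim probes, limma called no gene (0) after *miR-486-5p*, member or not.

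**Figure D1:**
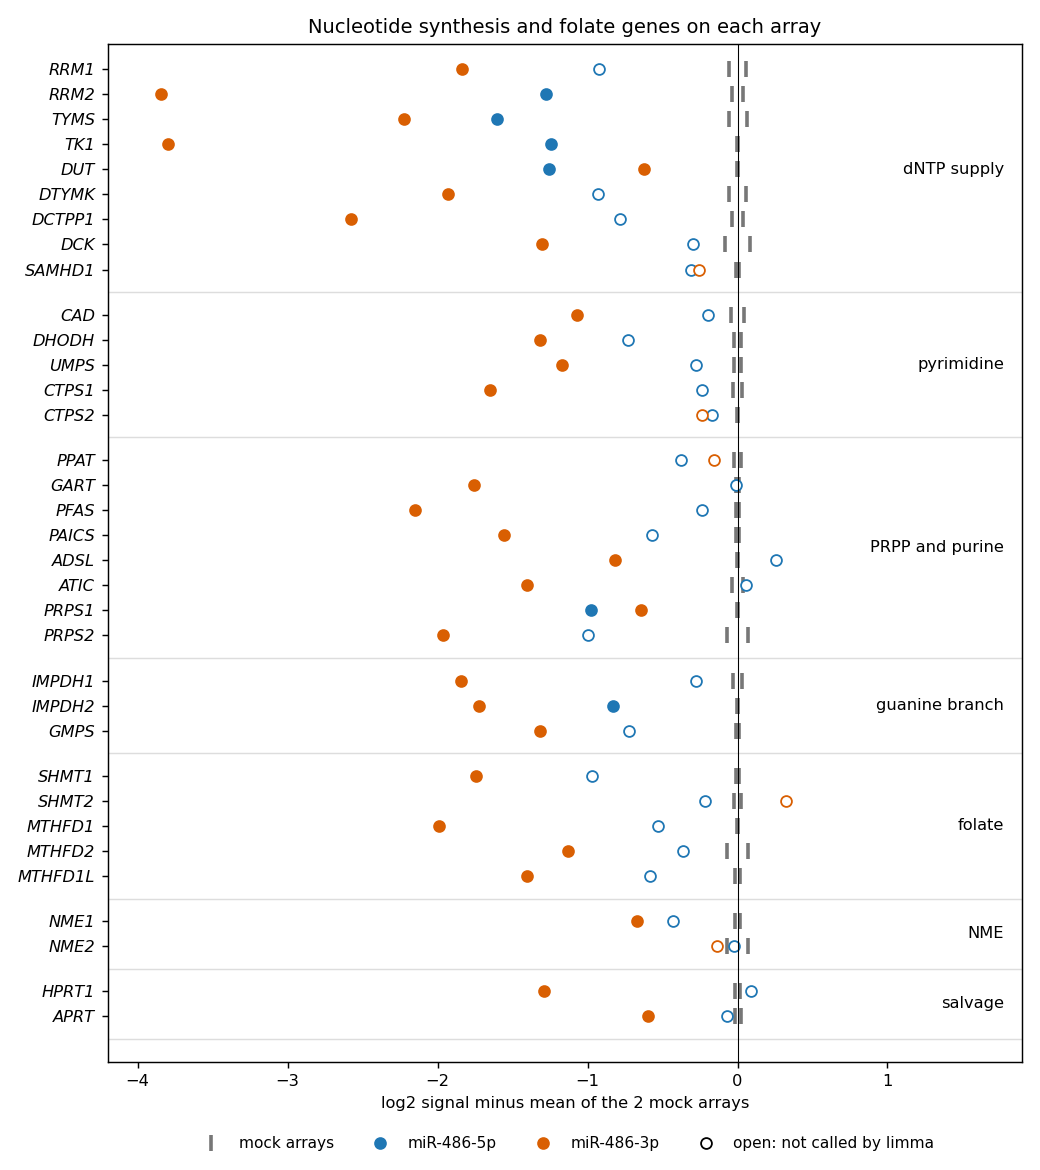
Log2 signal of the 34 genes minus the mean of the mock arrays (horizontal axis), by role, for the mock arrays (gray bars), *miR-486-5p* (blue) and *miR-486-3p* (orange). Filled points were called by limma: 6 with *miR-486-5p* and 29 with *miR-486-3p*, all to the left of the mock arrays.

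The enzymes of deoxynucleotide supply held the lowest values after either strand. Of these 9 genes, 4 fell with *miR-486-5p* and 8 with *miR-486-3p*, with median log2 differences of −0.93 and −1.93. *RRM2* encodes the small subunit of ribonucleotide reductase, which carries the radical needed for catalysis and is the target of hydroxyurea. Its level was 2.88 on mock 1, 2.95 on mock 2, 1.64 with *miR-486-5p* and −0.93 with *miR-486-3p*. Both transfected arrays were below the mock arrays and the *miR-486-3p* array was the lowest of the 4. The log2 difference was −1.28 after *miR-486-5p* (SE 0.095, adjusted p = 0.0475) and −3.84 after *miR-486-3p* (SE 0.095, adjusted p = 0.00762), or 41.3% and 6.97% of the mean mock signal. With normexp background correction the difference after *miR-486-3p* was −2.81, a smaller fall.

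*RRM1* encodes the large subunit, which holds the active site and the sites where nucleotides set the specificity of the enzyme. Its level was 4.21 on mock 1, 4.10 on mock 2, 3.23 with *miR-486-5p* and 2.32 with *miR-486-3p*. As for *RRM2*, the *miR-486-3p* array was the lowest and the *miR-486-5p* array lay between it and the mock arrays. It fell after *miR-486-3p*, with a log2 difference of −1.84 (SE 0.10, adjusted p = 0.00817), whereas after *miR-486-5p* the difference of −0.92 had an adjusted p of 0.0509 and was not called. The *p53*-inducible small subunit *RRM2B*, which is not a member, had probe log2 differences of −0.30 and −0.018 after *miR-486-5p* and of −0.05 and 0.33 after *miR-486-3p*, none of them called.

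*TYMS*, thymidylate synthase, had the lowest log2 difference of all 34 genes after *miR-486-5p*. Its level was 6.87 on mock 1, 6.75 on mock 2, 5.21 with *miR-486-5p* and 4.59 with *miR-486-3p*. The transfected arrays were both far below the mock arrays and nearer to each other than for *RRM2*. It fell by 1.60 after *miR-486-5p* (SE 0.11, adjusted p = 0.0475) and by 2.22 after *miR-486-3p* (SE 0.11, adjusted p = 0.00762), and the difference between the strands was −0.62 (adjusted p = 0.0458).

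*TK1*, the cytosolic thymidine kinase of the salvage route to dTMP, had the second lowest log2 difference after *miR-486-3p*. Its level was 7.17 on both mock arrays, 5.93 with *miR-486-5p* and 3.37 with *miR-486-3p*. It fell by 1.24 (SE 0.087, adjusted p = 0.0475) and by 3.80 (SE 0.087, adjusted p = 0.00762), to 42.3% and 7.20% of the mean mock signal. The mitochondrial kinases, which are not members, went another way after *miR-486-3p*: *TK2* fell after *miR-486-5p* with a log2 difference of −1.20 and rose after *miR-486-3p* by 1.05, and *DGUOK* had −0.18 after *miR-486-5p* and rose by 0.99 after *miR-486-3p*.

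*DUT*, the dUTPase that keeps uracil out of DNA and supplies dUMP to thymidylate synthase, was one of 2 members called higher after *miR-486-3p* than after *miR-486-5p*. Its level over its 2 probes was 5.24 on both mock arrays, 3.98 with *miR-486-5p* and 4.61 with *miR-486-3p*. Here the *miR-486-5p* array was the lowest of the 4. The log2 differences were −1.26 and −0.63, both called, and the *miR-486-3p* array exceeded the *miR-486-5p* array by 0.63, with adjusted p = 0.0283 and 0.0375 for the 2 probes.

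*DTYMK*, which phosphorylates dTMP to dTDP, fell after *miR-486-3p* by 1.93 and had a log2 difference of −0.93 after *miR-486-5p* that missed the threshold with an adjusted p of 0.0506. *DCTPP1*, which clears dCTP and its modified forms from the pool, had the third lowest log2 difference after *miR-486-3p*. Its level was 4.84 on mock 1, 4.92 on mock 2, 4.10 with *miR-486-5p* and 2.30 with *miR-486-3p*. The log2 differences were −0.78 (adjusted p = 0.0525) and −2.58 (adjusted p = 0.00762). *DCK*, the deoxycytidine kinase that activates gemcitabine and cytarabine, fell by 1.30 after *miR-486-3p* and had −0.30 after *miR-486-5p*. *SAMHD1*, the dNTP triphosphohydrolase that lowers deoxynucleotide pools, was the 1 gene of the 9 not called after either strand, at −0.31 and −0.26.

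Of the 5 genes of pyrimidine synthesis, 4 fell after *miR-486-3p* and none (0) was called after *miR-486-5p*, with median log2 differences of −1.17 and −0.24. Compared directly, the *miR-486-3p* array was lower than the *miR-486-5p* array for 4 of the 5. *CAD*, which carries out the first 3 steps, fell by 1.07 after *miR-486-3p* and had −0.20 after *miR-486-5p*. *DHODH*, the mitochondrial dehydrogenase of the pathway, fell by 1.31 and had −0.73 (adjusted p = 0.0525). *UMPS*, which makes UMP, fell by 1.17 and had −0.28. The *miR-486-3p* array lay below the *miR-486-5p* array for these genes, with differences of −0.88, −0.58 and −0.89 and adjusted p of 0.0239, 0.0380 and 0.0210.

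The CTP synthases did not move alike. *CTPS1*, known for its part in proliferating lymphocytes, had levels of 4.51 and 4.44 on the mock arrays, 4.24 with *miR-486-5p* and 2.82 with *miR-486-3p*. Only the *miR-486-3p* array lay apart, and the log2 difference there was −1.65, called for both probes. *CTPS2* had levels of −0.59 and −0.58 on the mock arrays, −0.76 with *miR-486-5p* and −0.82 with *miR-486-3p*. The arrays lay close together, but the 2 probes of *CTPS2* disagreed. The probe of NM_175859 had log2 differences of −0.53 and −0.69, the latter called, and the probe of NM_001144002 had 0.19 and 0.22. The sign of the mean therefore depended on the probe, and *CTPS2* was not called after either strand.

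In the supply of PRPP and in purine synthesis, 7 of 8 genes fell with *miR-486-3p* and 1 with *miR-486-5p*, with median log2 differences of −1.48 and −0.31. The PRPP synthetases, which make the PRPP that starts the purine route and is used by *UMPS* in the pyrimidine route, differed in which strand gave the lower value. *PRPS1* had levels of 2.99 on both mock arrays, 2.01 with *miR-486-5p* and 2.35 with *miR-486-3p*. *PRPS2* had levels of 0.09 and −0.05 on the mock arrays, −0.98 with *miR-486-5p* and −1.94 with *miR-486-3p*. Both genes were at about the same distance below mock after *miR-486-5p*, and only *PRPS2* was lower still after *miR-486-3p*. *PRPS1* fell after both strands, by 0.98 and by 0.64, and its probes did not pass the test between the strands (adjusted p = 0.107 and 0.0798). *PRPS2* fell after *miR-486-3p* by 1.96, was not called after *miR-486-5p* at −0.998 (adjusted p = 0.0514), and the strands differed by −0.97 (adjusted p = 0.0256).

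*PPAT*, the amidotransferase that commits PRPP to purine synthesis, was the member of this group that was called after neither strand. Its level was 1.23 on mock 1, 1.18 on mock 2, 0.83 with *miR-486-5p* and 1.04 with *miR-486-3p*. The arrays lay close together, the transfected ones a little below both mock arrays. Its log2 difference was −0.37 with *miR-486-5p* and −0.16 with *miR-486-3p*. The enzymes after it in the pathway were lower after *miR-486-3p*. *PFAS*, which acts at the fourth step, had levels of 0.80 and 0.81 on the mock arrays, 0.57 with *miR-486-5p* and −1.35 with *miR-486-3p*, and fell by 2.15 after *miR-486-3p*. *PAICS* fell by 1.56 and had −0.57 after *miR-486-5p*. These enzymes had smaller differences after *miR-486-5p* than after *miR-486-3p*, and the strands differed for both in the limma test.

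*ADSL*, *ATIC* and *HPRT1* were the 3 members with the highest log2 differences after *miR-486-5p*. *ADSL*, which acts both in the making of IMP and in the branch to AMP, had levels of 2.73 on both mock arrays, 2.98 with *miR-486-5p* and 1.91 with *miR-486-3p*. *ATIC*, the enzyme of the last steps to IMP, had levels of 3.67 and 3.75 on the mock arrays, 3.77 with *miR-486-5p* and 2.31 with *miR-486-3p*. *HPRT1*, which salvages hypoxanthine and guanine, had levels of 4.65 and 4.61 on the mock arrays, 4.72 with *miR-486-5p* and 3.34 with *miR-486-3p*. For these genes the *miR-486-5p* array lay above both mock arrays and the *miR-486-3p* array well below them. The log2 differences after *miR-486-5p* were 0.26, 0.06 and 0.09, none of them called, although *ADSL* was called higher under 2 of 10 alternative settings, and that of *ATIC* was −0.02 with median scaling. After *miR-486-3p* the 3 genes fell by 0.82, 1.40 and 1.29, and the strands differed by −1.08, −1.46 and −1.38 (adjusted p of 0.0160, 0.0134 and 0.0132).

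*GART* codes for a trifunctional enzyme of the pathway and also for a shorter protein that has the first of its activities alone. Its 2 probes, listed under the transcripts NM_000819 and NM_175085, gave opposite signs after *miR-486-5p*, at −0.47 and 0.45 (adjusted p = 0.0731 and 0.0783), and their mean of −0.0077 hid that difference. After *miR-486-3p* both were lower, at −1.60 and −1.91, and both were called. Whether the array probes read only the transcript they are listed under was not tested.

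In the guanine nucleotide branch, all 3 genes fell after *miR-486-3p* and *IMPDH2* also after *miR-486-5p*. IMP dehydrogenase, the target of mycophenolic acid, is made by 2 genes. *IMPDH1* had levels of 5.51 and 5.57 on the mock arrays, 5.27 with *miR-486-5p* and 3.70 with *miR-486-3p*. *IMPDH2* had levels of 4.37 on both mock arrays, 3.53 with *miR-486-5p* and 2.64 with *miR-486-3p*. The log2 differences of the paralogs after *miR-486-3p* were −1.85 and −1.73, and those after *miR-486-5p* were −0.28 (adjusted p = 0.152) and −0.83 (adjusted p = 0.0492); the difference between the genes was not tested. *GMPS*, which makes GMP out of XMP, had −0.72 after *miR-486-5p* (adjusted p = 0.0524) and fell by 1.31 after *miR-486-3p*.

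Of the 5 folate one-carbon genes, 4 fell after *miR-486-3p*, with *SHMT2* as the exception, and after *miR-486-5p* none (0) was called on every probe. *SHMT1*, the cytosolic serine hydroxymethyltransferase, had levels of 0.31 and 0.34 on the mock arrays, −0.64 with *miR-486-5p* and −1.42 with *miR-486-3p*. *SHMT2*, the mitochondrial enzyme, had levels of 4.82 and 4.87 on the mock arrays, 4.63 with *miR-486-5p* and 5.17 with *miR-486-3p*. *SHMT1* was therefore lowest and *SHMT2* highest on the *miR-486-3p* array. The log2 difference of *SHMT1* was −0.97 after *miR-486-5p*, called for 1 of its 2 probes, and −1.74 after *miR-486-3p*. That of *SHMT2* was −0.21 and 0.33, neither of them called, and its level was higher after *miR-486-3p* than after *miR-486-5p* by 0.54 (adjusted p = 0.0435). With median scaling the 0.33 of *SHMT2* became −0.05, and it was called higher than mock after *miR-486-3p* under 6 of 10 alternative settings.

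*MTHFD1*, *MTHFD2* and *MTHFD1L*, whose enzymes interconvert the one-carbon units, fell after *miR-486-3p*. *MTHFD1*, the cytosolic trifunctional enzyme, had levels of 5.39 on both mock arrays, 4.86 with *miR-486-5p* and 3.40 with *miR-486-3p*. Its log2 differences were −0.53 (adjusted p = 0.0637) and −1.99 (adjusted p = 0.00762). *MTHFD2*, a mitochondrial enzyme high in many tumors, had −0.36 and fell by 1.13. *MTHFD1L*, the mitochondrial enzyme that releases formate, had levels of 2.50 and 2.53 on the mock arrays, 1.93 with *miR-486-5p* and 1.11 with *miR-486-3p*, for log2 differences of −0.58 and −1.40. Its 3 probes disagreed in size. The probe of NM_001242767 had −0.97 with *miR-486-5p* and −1.10 with *miR-486-3p*, and the probes of NM_015440 had 0.10 with −2.24 and −0.87 with −0.87. The probes with −0.97 and −0.87 were called after *miR-486-5p*, and the one with 0.10 was not, although it had the largest difference after *miR-486-3p*. *MTHFD2L*, a paralog outside the list, had 0.10 after *miR-486-5p* and rose by 1.61 after *miR-486-3p*.

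**Figure D2:**
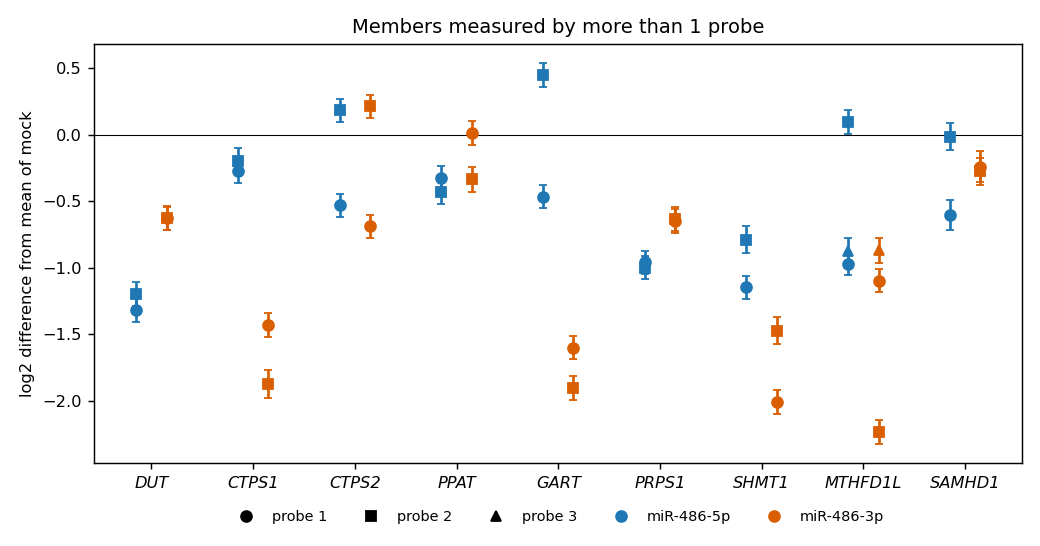
Log2 difference from the mean mock signal (vertical axis, bars for ± 1 SE of limma) for each probe of the 9 members that were read by more than 1 probe, *miR-486-5p* in blue and *miR-486-3p* in orange. The probes of *GART*, *CTPS2* and *MTHFD1L* lie on both sides of 0 after *miR-486-5p*, and those of *DUT* and *PRPS1* lie together.

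The diphosphate kinases and purine salvage genes had small differences after *miR-486-5p*. *NME1*, which hands phosphate to nucleoside diphosphates, had levels of 7.56 and 7.60 on the mock arrays, 7.15 with *miR-486-5p* and 6.91 with *miR-486-3p*. *NME2* had levels of 8.98 and 9.12 on the mock arrays, 9.03 with *miR-486-5p* and 8.92 with *miR-486-3p*. *NME1* fell after *miR-486-3p* by 0.67, and *NME2* lay at −0.025 and −0.13, with the *miR-486-5p* array between the mock arrays. The 2 genes are neighbors of similar sequence, and signal of one on the probe of the other was not tested. *APRT*, which salvages adenine, had −0.07 after *miR-486-5p* and fell by 0.60 after *miR-486-3p*.

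The strands were also compared directly, since a call after one strand and none after the other does not show a difference. On the *miR-486-3p* array 25 members were lower than on the *miR-486-5p* array and 2 were higher, *DUT* and *SHMT2*. With median scaling, or without the filter on dim probes, none (0) was called higher. Of all genes, 21.7% were lower and 20.8% higher. The median difference of the 34 genes was −0.89, beside 0.02 over all genes. The 7 members not called in this comparison were *CTPS2*, *PPAT*, *PRPS1*, *MTHFD1L*, *NME1*, *NME2* and *SAMHD1*. Both strand comparisons use the same mock arrays, so they are not independent of each other.

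Other genes of nucleotide and folate metabolism gave a more mixed picture. Of 54 such genes on the list, among them transporters, serine synthesis enzymes, adenylate and uridine kinases and nucleotidases, 52 were tested. Among all genes tested, 4.83% fell and 2.25% rose after *miR-486-5p*, and 25.7% fell and 25.6% rose after *miR-486-3p*. Of the 52, 3 (5.77%) fell and none (0) rose after *miR-486-5p*, with a median of −0.17. After *miR-486-3p* 18 (34.6%) fell and 13 rose, with a median of −0.23. Genes of the replication fork (MCM2-7 subunits, GINS, origin licensing factors, polymerases and their clamp) were lower still. Of 31 tested, 16 (51.6%) fell with *miR-486-5p* and 30 (96.8%) with *miR-486-3p*. None (0) rose after either strand, and the medians were −0.96 and −1.84. In the deoxynucleotide group of members the medians were −0.93 and −1.93. The share of cells in each phase of the cell cycle was not measured on these arrays, and its part in these values was not tested.

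**Figure D3:**
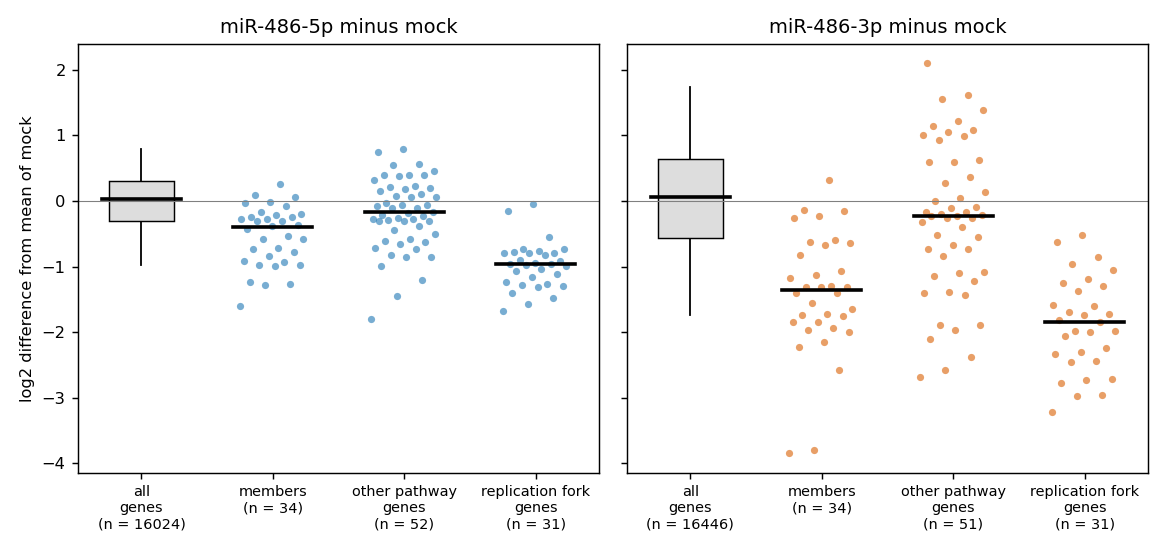
Log2 difference from the mean mock signal (vertical axis) for all genes (box, quartiles; line, 5th to 95th percentile), the 34 members, the other pathway genes and the replication fork genes, 1 point a gene, thick bars at the medians. The members lie at medians of −0.40 and −1.36, between the other pathway genes and the replication fork genes after each strand.

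The calls after *miR-486-3p* depended little on the way the arrays were processed, and those after *miR-486-5p* depended on it much. Over 10 alternative limma settings, 28 of the 29 genes that fell after *miR-486-3p* were called lower in every one, the exception being *APRT* (8 of 10). After *miR-486-5p*, no gene (0) was called in all 10 settings. *TYMS*, *RRM2*, *TK1*, *DUT*, *PRPS1* and *SHMT1* were called lower in 8 of 10 and *IMPDH2* in 7 of 10. The counts ranged from 0 to 21 after *miR-486-5p* and from 28 to 31 after *miR-486-3p*. Over all genes, the share called lower ranged from 0% to 19.2% and from 13.6% to 38.9%. The member median after *miR-486-5p* was −0.36 to −0.48 over the settings. Single members moved more with normexp, which brought the log2 differences after *miR-486-3p* to −0.51 for *DCK*, −0.83 for *PRPS2*, −1.19 for *PFAS* and −0.94 for *SHMT1*, and that of *PRPS2* after *miR-486-5p* to −0.58.

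**Figure D4:**
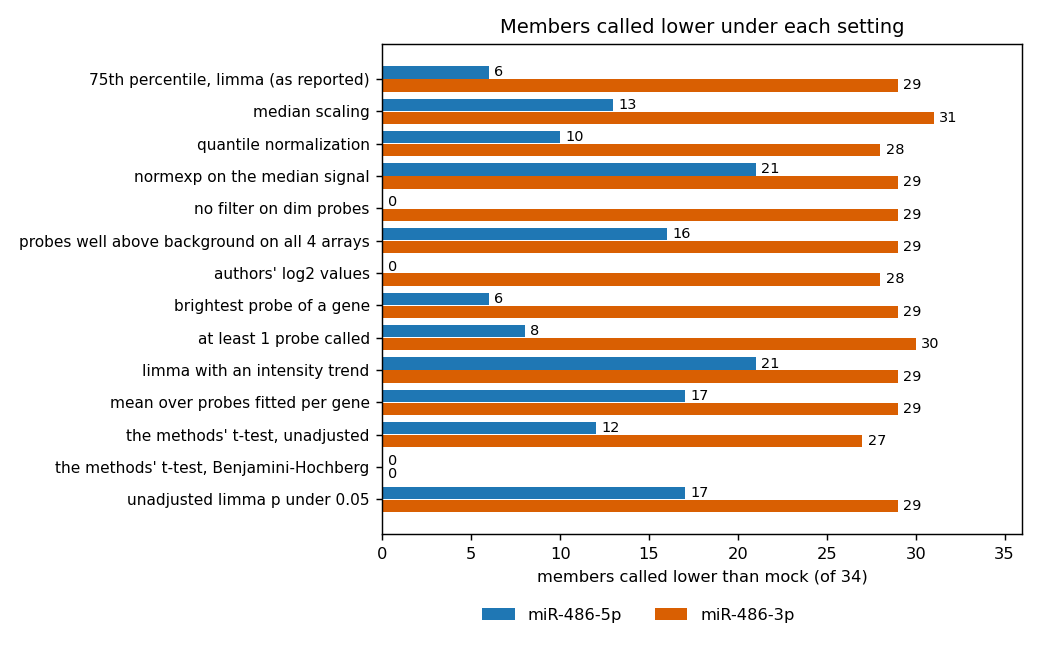
Number of the 34 members called lower than mock (horizontal axis, starting at 0) under each setting of scaling, filter, test and threshold, *miR-486-5p* in blue and *miR-486-3p* in orange. The *miR-486-5p* count runs from 0 to 21, and the *miR-486-3p* count is 27 to 31 except with the methods' t-test after Benjamini-Hochberg adjustment, where it is 0.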

How the data were processed

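The authors deposited, for each of the 4 arrays, the output of Agilent Feature Extraction 12.1.1.1, in which the processed signal of a spot is an intensity on a linear scale, already background-subtracted and detrended by that software. A second deposited table holds log2 values for these arrays, whose median was 2.76 on each array, as after quantile normalization; its normalization is not given in the sources used here. Per the file headers, the array was annotated on hg19.

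Control spots and spots marked as outliers were left out, log2 of the processed signal was taken, the 75th percentile of the array was subtracted and spots of one probe were averaged. RefSeq accessions named 33080 probes, 31104 of which were matched to a gene of GRCh38.p14, used for names alone. limma 3.58.1 (R 4.3.3; lmFit and eBayes) was fitted to all 4 arrays with 3 groups, on 33498 probes well above background on every array of at least 1 group (16662 genes), with Benjamini-Hochberg adjustment at 0.05. A gene was called if every tested probe was called. The fit has 1 residual degree of freedom, between the mock arrays, and a prior of 1.75 degrees of freedom with an SD of 0.0893. Precision is limited by the number of arrays. All arrays lay on 1 slide, so no slide term could be fitted. For counts beyond 0.5, a group not well above background was raised to the lowest signal well above background. All members are named; signals by array are given for *RRM1*, *RRM2*, *TYMS*, *TK1*, the 3 lowest and 3 highest members after each strand and paralog pairs, and for *PFAS*, chosen after its values were seen. Members and lists were chosen with earlier results of these data known. The alternatives were median and quantile scaling, normexp (offset 50), other filters, the brightest probe, other call rules, an intensity trend, the methods' t-test and leaving out a mock array. The fit was tested on simulated data. Values of some genes outside the members are not reported here, although counts over their lists include them.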

Additional observations from a re-analysis of the deposited data

How the results depend on the processing

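Median scaling moved the median log2 difference of all genes to −0.05 with *miR-486-5p* and −0.32 with *miR-486-3p*. It moved the member medians to −0.48 and −1.73, which are −0.43 and −1.42 relative to all genes, as with the 75th percentile. It also turned the calls over all genes after *miR-486-3p* to 38.9% lower and 16.1% higher and those between the strands to 31.9% and 14.8%. It left no member (0) higher after *miR-486-3p* than after *miR-486-5p*. After *miR-486-5p* it gave 13 members lower, against 10.7% of all genes. The member median after *miR-486-3p* was −1.29 with quantile normalization, −1.22 with normexp and −1.30 with the deposited values. With normexp, 17.4% of all genes were lower and 16.2% higher after *miR-486-5p*. Members called lower after *miR-486-5p* numbered 10 with quantile normalization, 21 with normexp or with an intensity trend, 16 with probes well above background on all 4 arrays, 17 with a fit per gene or at an unadjusted limma p under 0.05, and 12 with the methods' t-test unadjusted. Of all genes, 6.10% were lower with quantile normalization, 19.2% with an intensity trend and 16.3% with probes above background on all 4 arrays. The share was 16.9% with a fit per gene, 19.5% at an unadjusted limma p and 9.39% with the t-test unadjusted. They numbered 0 without the filter on dim probes, with the deposited values, and with the methods' t-test after adjustment, against 17 at an unadjusted limma p. In the same setting that t-test left 0 members lower after *miR-486-3p*, against 27 unadjusted. After *miR-486-5p*, 1 member, *ADSL*, was higher with normexp, an intensity trend or the unadjusted t-test. *SHMT2* was the 1 member higher after *miR-486-3p* with quantile normalization, normexp, probes above background on all arrays, the deposited values, an intensity trend, a fit per gene or an unadjusted limma p, and was the 1 member above 0.5 with quantile normalization or the deposited values. Without the filter, 14 members were lower and 0 higher between the strands, against 9.66% and 9.41% of all genes. Below −1 lay 4 members with *miR-486-5p* and 24 with *miR-486-3p*. Over all genes, the 5th percentile of the log2 difference was −0.97 with *miR-486-5p* and −1.74 with *miR-486-3p*, and the 25th was −0.31 and −0.56. The share of all genes below −1 was therefore under 5% with *miR-486-5p* and between 5% and 25% with *miR-486-3p*. With its brightest probe alone, *MTHFD1L* had 0.10 after *miR-486-5p*, a sign opposite to its mean. Without either mock array the medians were −0.40 to −0.42 and −1.36 to −1.37, and the counts below −0.5 stayed at 16 and 29; no test is possible then, since no residual degree of freedom is left. Of 612 values of single members under the alternatives, 388 moved by less than the SD between the mock arrays over members (0.051), 223 by more, and 1 changed sign from beyond 0.5. The 388 include 68 values without the filter on dim probes and 68 with probes well above background on all 4 arrays. These could not move, because all 44 member probes were well above background on every array. Median scaling moved all 68 of its values by more than the SD. The causes were not tested. No paired analysis was possible because each strand has 1 array and the mock numbers pair with none.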
